A study of Mus musculus with 12 samples.

Results

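The genes described here encode the proteasome, the protease that degrades ubiquitin-tagged proteins. They are the rows of 2 expression tables whose symbol starts with Psma, Psmb, Psmc, Psmd or Psme and a digit, without the immunoproteasome subunits Psmb8, Psmb9 and Psmb10, and with a table mean of at least 1 FPKM, a level per transcript length (fragments per kilobase, scaled to library size). Of the 23174 rows of each table, 41 had such a symbol and 40 of them passed the minimum in both tables. The 15 Psma and Psmb genes are called core members and the 25 Psmc, Psmd and Psme genes regulatory members. The row left out was Psmb11, a core subunit otherwise used by thymic epithelium, which was listed at 0 in all 12 libraries. Just above the minimum stood Psma8 with a mean of 1.06 FPKM and Psma3 with 3.46 FPKM in the tumour table, and the lowest member ex vivo was Psma3 with a mean of 5.64 FPKM. One of the 40 symbols, Psmc3ip, names a meiotic recombination factor and no proteasome subunit, and it was kept because the rule takes it.

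RNA was sequenced from T-ALL, the acute lymphoblastic leukaemia of T cell precursors, in C57BL/6 mice. In all 12 samples the leukaemia carried Notch1-deltaE, a form of the Notch1 receptor that signals without ligand. The ex vivo groups were 3 samples treated with AMD3100, a small-molecule antagonist of CXCR4, the receptor for the chemokine CXCL12, and 3 treated with vehicle. The tumour groups were 3 primary tumours labelled Cxcr4-KO (numbers 5, 7 and 8) and 3 labelled Cxcr4+/+ (numbers 1, 2 and 4). The labels describe one culture for every sample, in which spleen T-ALL cells grew with the cytokine IL-7 on OP9 cells, a bone marrow stromal line whose division had been stopped with mitomycin C. The titles, however, call the tumour samples primary tumours. Haemoglobin made up 1.29% to 23.0% of their FPKM, against at most 0.000139% ex vivo. Stroma markers summed to 0.184 to 11.8 FPKM in the tumours, against 10.9 to 199 FPKM ex vivo. The culture text may therefore not hold for the tumours. The labels give no dose or duration for AMD3100, no age of the mice and no driver of the Cxcr4 deletion. Nothing in them ties the samples of a group to separate mice or cultures, so the p-values reflect how far these samples vary, which may be technical variation. Read depth is unknown, because the tables hold no counts.

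The proteasome consists of a 20S core particle and regulatory particles that cap it. The core stacks outer rings of alpha subunits, which gate the channel, on inner rings of beta subunits, some of which carry the protease sites. The 19S regulatory particle has a base, whose ATPases unfold substrates and push them into the core, and a lid, which takes off the ubiquitin chain. Activators of the PA28 and PA200 types can cap the core without ATP or ubiquitin. Dividing leukaemia cells turn over cell cycle regulators and misfolded proteins through this machine, and proteasome inhibitors are used against blood cancers. When proteasome activity falls, mammalian cells raise subunit transcription through Nfe2l1, which binds antioxidant response elements in subunit promoters.

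Since the members moved together ex vivo (below), the DNA at their gene starts is shown for 6 of them. These include the 2 core genes with the largest falls, the lid gene with the largest fall and the member that rose. The others are a protease subunit and a base ATPase, Psmc6. Among the ATPases Psmc1 fell most, and its window lacked the antioxidant response element core defined below. The 6 windows are therefore no fair sample of the motifs, and shares over all member windows are given below. Each window holds 250 bases before to 50 bases after the annotated start, from RefSeq on mouse build GRCm38.p6, printed 5′ to 3′ on the strand of the gene. Capitals mark 3 motifs, searched on both strands with no matches that overlapped in the printed windows: the antioxidant response element core TGACNNNGC, the CCAAT box, which NF-Y binds, and CTTCCGG, a core bound by factors of the ETS family. CTTCCGG was added after the windows had been read. The windows of Psma2 (chr13:14612992-14613291, plus strand), Psma1 (chr7:114276067-114276366, minus strand), Psmb5 (chr14:54617946-54618245, minus strand), Psmc6 (chr14:45329574-45329873, plus strand), Psmd12 (chr11:107479278-107479577, plus strand) and Psmd11 (chr11:80428365-80428664, plus strand) read as follows.
Psma2: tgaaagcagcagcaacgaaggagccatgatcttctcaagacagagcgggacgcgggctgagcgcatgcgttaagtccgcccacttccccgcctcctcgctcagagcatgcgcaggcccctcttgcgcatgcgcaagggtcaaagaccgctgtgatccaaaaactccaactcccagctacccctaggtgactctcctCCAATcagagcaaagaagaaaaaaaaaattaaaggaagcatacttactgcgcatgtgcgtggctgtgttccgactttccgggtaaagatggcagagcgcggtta
Psma1: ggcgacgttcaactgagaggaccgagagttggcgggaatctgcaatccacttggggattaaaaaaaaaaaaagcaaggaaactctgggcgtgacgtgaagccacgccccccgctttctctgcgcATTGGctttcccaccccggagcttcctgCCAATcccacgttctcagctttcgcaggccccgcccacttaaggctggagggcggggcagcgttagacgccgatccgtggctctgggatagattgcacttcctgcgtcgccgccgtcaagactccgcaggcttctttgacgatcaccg
Psmb5: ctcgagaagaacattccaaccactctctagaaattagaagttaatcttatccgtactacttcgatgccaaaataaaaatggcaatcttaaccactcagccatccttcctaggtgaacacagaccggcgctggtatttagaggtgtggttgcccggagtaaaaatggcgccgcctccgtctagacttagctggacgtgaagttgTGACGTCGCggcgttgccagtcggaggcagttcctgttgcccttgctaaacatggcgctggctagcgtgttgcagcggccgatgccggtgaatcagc
Psmc6: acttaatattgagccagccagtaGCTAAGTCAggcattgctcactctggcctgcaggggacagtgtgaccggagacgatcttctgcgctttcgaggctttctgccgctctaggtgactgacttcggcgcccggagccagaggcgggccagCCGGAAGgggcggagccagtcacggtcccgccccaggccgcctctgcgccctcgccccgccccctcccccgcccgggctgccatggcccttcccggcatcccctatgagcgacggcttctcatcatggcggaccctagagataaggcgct
Psmd12: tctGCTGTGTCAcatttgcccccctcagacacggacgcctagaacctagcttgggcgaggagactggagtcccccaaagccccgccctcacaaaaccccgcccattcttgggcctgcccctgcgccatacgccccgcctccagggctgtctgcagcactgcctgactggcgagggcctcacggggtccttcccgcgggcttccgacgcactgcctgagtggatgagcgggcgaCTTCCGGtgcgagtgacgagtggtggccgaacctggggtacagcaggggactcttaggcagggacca
Psmd11: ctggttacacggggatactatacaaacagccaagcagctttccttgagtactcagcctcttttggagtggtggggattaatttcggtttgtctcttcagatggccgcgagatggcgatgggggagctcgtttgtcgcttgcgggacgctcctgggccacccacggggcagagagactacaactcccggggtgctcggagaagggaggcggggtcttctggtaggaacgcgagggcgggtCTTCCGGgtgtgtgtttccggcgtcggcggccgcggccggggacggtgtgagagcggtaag

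In the Psma2 window a CCAAT box began at -54 relative to the start, and in the Psma1 window CCAAT boxes began at -126 (minus strand) and -98. The Psmb5 window held an antioxidant response element core at -47. The Psmc6 window held that core at -227 and CTTCCGG at -100, both on the minus strand. The Psmd12 window held the core at -247 (minus strand) and CTTCCGG at -17. Psmd11, the member that rose, held CTTCCGG and neither of the other motifs. RefSeq windows were at hand for 33 of the 40 members (36 windows, because a gene can have several starts).

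Across these windows TGACNNNGC was found in 16.7% of member windows, 14.5% of the 9646 windows of genes tested ex vivo and 12.4% of all 32851 windows. CCAAT was found in 36.1% of member windows, 38.2% of windows of tested genes and 37.4% of all windows. Both shares in the members lie close to those of the other genes. CTTCCGG was found in 38.9% of member windows, 19.6% of windows of tested genes and 8.86% of all windows. Because this motif was chosen after member windows had been read, its share in the members is no test of enrichment. The 13 member genes with CTTCCGG were Psma6, Psmc1, Psmc2, Psmc3ip, Psmc6, Psmd2, Psmd4, Psmd6, Psmd11, Psmd12, Psmd13, Psme3 and Psme4. All but Psma6 are regulatory members by the rule, Psmc3ip among them, and the 13 include genes that fell, did not pass the test and rose ex vivo. Core and regulatory members were not compared evenly. No window was at hand for Psma8, Psmb1, Psmb2, Psmb7, Psmc3, Psmd3 and Psmd7, and more regulatory than core genes had one. These matches are letters in a window and show neither binding nor use of a site.

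Ex vivo, the FPKM of most proteasome genes was lower with AMD3100, while calls of single genes depended on the fit (next paragraph). The core members summed to 1961, 1867 and 1997 FPKM in AMD3100 samples 1, 2 and 3, against 2610, 2462 and 2874 FPKM in vehicle samples 1, 2 and 3. The regulatory members summed to 2098, 2053 and 2280 FPKM with AMD3100, against 2627, 2510 and 2951 FPKM with vehicle. All 3 AMD3100 samples lay below all 3 vehicle samples in both sums. The 40 members together took 0.869%, 0.881% and 0.944% of the summed FPKM with AMD3100, against 1.13%, 1.12% and 1.21% with vehicle. The median change on the log2(FPKM + 1) scale, AMD3100 minus vehicle, was -0.35 for core members and -0.37 for regulatory members, against 0.0 for all 10245 genes tested. The change was below 0 for 38 of 40 members (49.7% of all genes), 35 were lower in all 3 pairs (29.4% of all genes), and 30 members had every AMD3100 value below every vehicle value (15.8% of all genes).

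The call of single genes depended on whether same-numbered samples were taken as pairs. Without the pairs, limma at a Benjamini-Hochberg adjusted p under 0.05 called none of the 40 members lower (0.0781% of all genes called lower) and none higher (0.0488% called higher). At an unadjusted p under 0.05, 30 of the 40 members passed, against 21.5% of all genes. The smallest adjusted p among them was 0.0501, for Psma1. The replicate numbers were shared between the groups, and samples with one number departed from their group means in the same genes. With the replicate number as a block, 23 of 40 members were called lower (9.92% of all genes called lower), 9 of 15 core and 14 of 25 regulatory. One member, Psmd11, was called higher (9.96% of all genes called higher). These paired calls depended on which pairs were kept. Without pair 1 or without pair 2 no member was called lower, and only 4 and 6 genes were called in all. Without pair 3, 559 of 10245 genes were called in either direction, and 5 core and 7 regulatory members were called lower. In the paragraphs that follow, rose and fell mean a call in the paired fit, and adjusted p-values come from it unless stated.

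**Figure D1:**
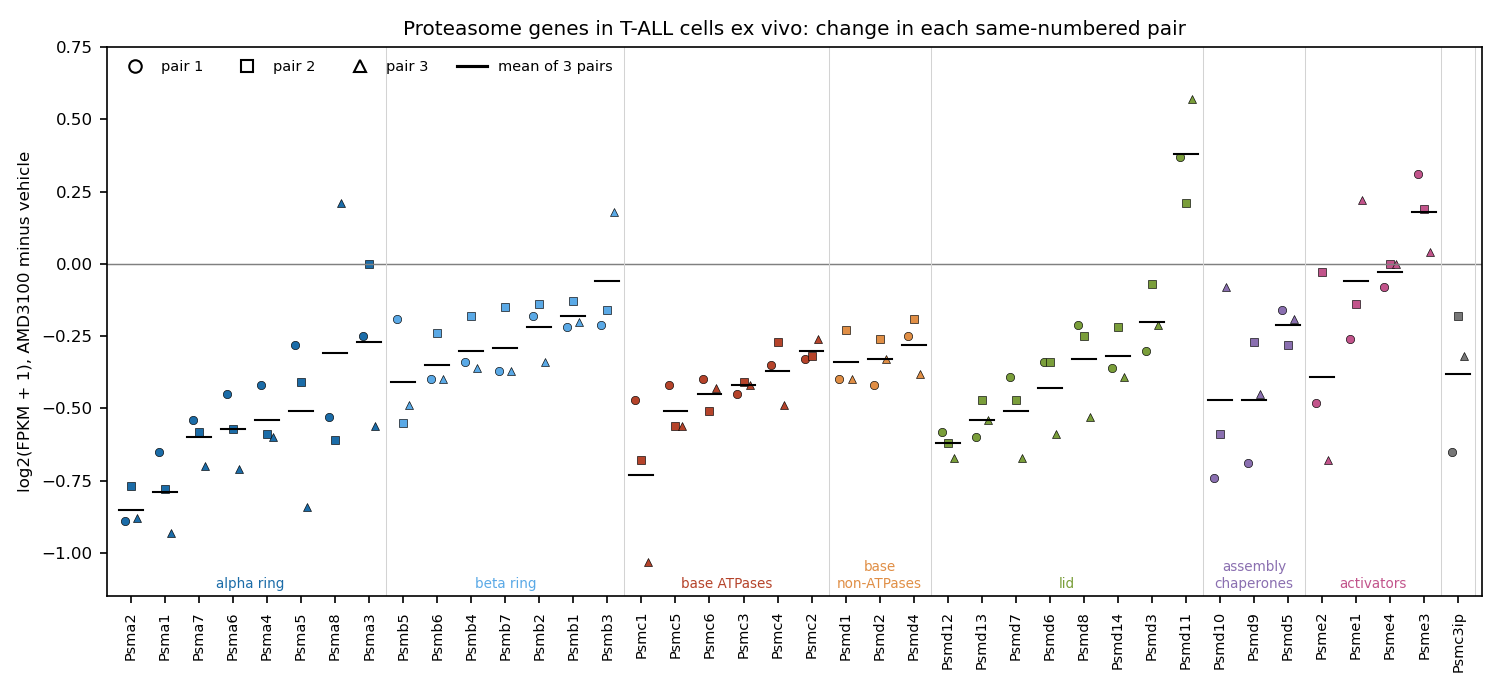
Change of each of the 40 members ex vivo in log2(FPKM + 1), AMD3100 minus vehicle, for same-numbered pairs 1 (circle), 2 (square) and 3 (triangle), with the mean of the 3 pairs as a bar; colours mark subcomplexes. In 35 of 40 members all 3 pairs lie below 0, and Psmd11 and Psme3 are the 2 members with all 3 pairs above 0 (30.8% of all genes).

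The alpha ring, which gates the core, had a median change of -0.55 and 6 of 8 genes called lower. Psma2 had 101, 99.2 and 112 FPKM in AMD3100 samples 1, 2 and 3, against 187, 170 and 208 FPKM in vehicle samples. Its means were 104 ± 7.01 FPKM with AMD3100 and 188 ± 18.8 FPKM with vehicle (SD, n = 3 each), a level lower by 44.8%. All AMD3100 values of Psma2 lay far below all vehicle values, and the log2 change was -0.85 (SE 0.0647, adjusted p = 0.0172), the largest fall of any member. Psma1 had 143, 134 and 134 FPKM with AMD3100, against 224, 231 and 256 FPKM with vehicle. Its groups did not overlap either, with a log2 change of -0.79 (SE 0.0795, adjusted p = 0.0191). The other called alpha genes were Psma7 at -0.60, Psma6 at -0.57, Psma4 at -0.54 and Psma5 at -0.51, the last just under the threshold. Psma3 was listed low, with 4.64, 5.40 and 4.92 FPKM under AMD3100, against 5.72, 5.42 and 7.71 FPKM with vehicle. Its change of -0.27 was not called (adjusted p = 0.224). Psma4, by comparison, had means of 102 FPKM with AMD3100 and 148 FPKM with vehicle. Whether reads of Psma3 were lost or split in the deposited values was not tested.

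Psma8, a paralogue of Psma7 that in mice is known from the testis, followed the sample number. It had 14.4, 12.5 and 0.155 FPKM in AMD3100 samples 1, 2 and 3, against 21.2, 19.6 and 0 FPKM in vehicle samples 1, 2 and 3. It was present in the samples numbered 1 and 2 of both groups and nearly missing in both numbered 3. Its change of -0.31 was not called (adjusted p = 0.289), and the groups overlapped.

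The beta ring had a median change of -0.29 and 3 of 7 measured genes called lower. Psmb5, the chymotrypsin-like protease subunit that bortezomib inhibits, had 61.3, 52.4 and 51.8 FPKM with AMD3100, against 70.1, 77.0 and 73.3 FPKM with vehicle. The groups did not overlap, and the log2 change was -0.41 (SE 0.0921, adjusted p = 0.0402). Psmb6, the caspase-like subunit, had 121, 116 and 119 FPKM with AMD3100, against 160, 137 and 158 FPKM with vehicle. It was likewise lower in every AMD3100 sample, with a change of -0.35 (SE 0.0682, adjusted p = 0.0310). Psmb7, the trypsin-like subunit, had 156, 168 and 154 FPKM with AMD3100, against 201, 186 and 199 FPKM with vehicle. Its groups did not overlap, but its change of -0.29 missed the threshold (adjusted p = 0.0543). The annotation used here names pseudogenes of Psmb5, Psmb6 and Psmb7, and reads of a gene and its copies may have been split or shared in the deposited values.

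Of the beta subunits without a protease site, Psmb4 fell by 0.30 (adjusted p = 0.0467), while Psmb1 at -0.18, Psmb2 at -0.22 and Psmb3 at -0.06 were not called. Psmb3 had 73.4, 61.5 and 103 FPKM with AMD3100, against 84.8, 68.7 and 91.1 FPKM with vehicle. Pairs 1 and 2 were lower with AMD3100 and pair 3 was higher, so the groups overlapped.

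In the base of the regulatory particle all 6 ATPases, Psmc1 to Psmc6, were called lower, with a median change of -0.44 and a range of -0.73 to -0.30. Psmc1 had 83.5, 61.7 and 65.0 FPKM with AMD3100, against 116, 99.7 and 133 FPKM with vehicle. It had the largest fall of the regulatory members, -0.73 (SE 0.118, adjusted p = 0.0238), with no overlap of the groups. Psmc5 had 108, 109 and 107 FPKM with AMD3100, against 144, 161 and 158 FPKM with vehicle. The AMD3100 samples had an SD of 0.981 FPKM (n = 3) and lay well below the vehicle samples, with a change of -0.51 (SE 0.0664, adjusted p = 0.0197). Psmc4 had 145, 155 and 152 FPKM with AMD3100, against 184, 188 and 215 FPKM with vehicle, a change of -0.37 (adjusted p = 0.0311). Psmc6 at -0.45, Psmc3 at -0.42 and Psmc2 at -0.30 completed the ring.

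The scaffold and ubiquitin-binding subunits of the base moved alike. Psmd1, a scaffold, had 75.6, 78.6 and 77.9 FPKM with AMD3100, against 100, 92.6 and 103 FPKM with vehicle, and fell by 0.34 (SE 0.0689, adjusted p = 0.0321). Psmd2, the other large scaffold, had 54.9, 61.1 and 63.0 FPKM with AMD3100, against 73.6, 73.2 and 79.2 FPKM with vehicle, and fell by 0.33 (SE 0.0666, adjusted p = 0.0320). Psmd4, a ubiquitin receptor, had 139, 138 and 151 FPKM with AMD3100, against 165, 158 and 197 FPKM with vehicle. All 3 genes had every AMD3100 value below every vehicle value, but Psmd4 at -0.28 was not called (adjusted p = 0.0516).

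In the lid 5 of 8 genes were called lower and 1 higher, with a median change of -0.38. Psmd12 had 70.9, 69.6 and 75.1 FPKM with AMD3100, against 106, 107 and 120 FPKM with vehicle. Its groups stood well apart, and the change was -0.62 (SE 0.0618, adjusted p = 0.0191). Psmd13 at -0.54, Psmd7 at -0.51 and Psmd6 at -0.43 also fell. Psmd14, the deubiquitinase that removes ubiquitin chains from substrates, had 101, 104 and 118 FPKM with AMD3100, against 130, 121 and 155 FPKM with vehicle. It fell by 0.32 (SE 0.0688, adjusted p = 0.0361), with a narrow gap between the groups. Psmd8 at -0.33 (adjusted p = 0.0588) and Psmd3 at -0.20 (adjusted p = 0.118) were not called.

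Psmd11, a lid subunit, went the other way. It had 32.4, 33.1 and 39.5 FPKM with AMD3100, against 24.9, 28.5 and 26.3 FPKM with vehicle. Every AMD3100 value lay above every vehicle value, and the log2 change was 0.38 (SE 0.0926, adjusted p = 0.0470 with pairs and 0.125 without). It was the one member whose groups did not overlap in the upward direction (13.1% of all genes). With TMM scaling, quantile normalisation or no variance trend the paired fit did not call it.

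**Figure D2:**
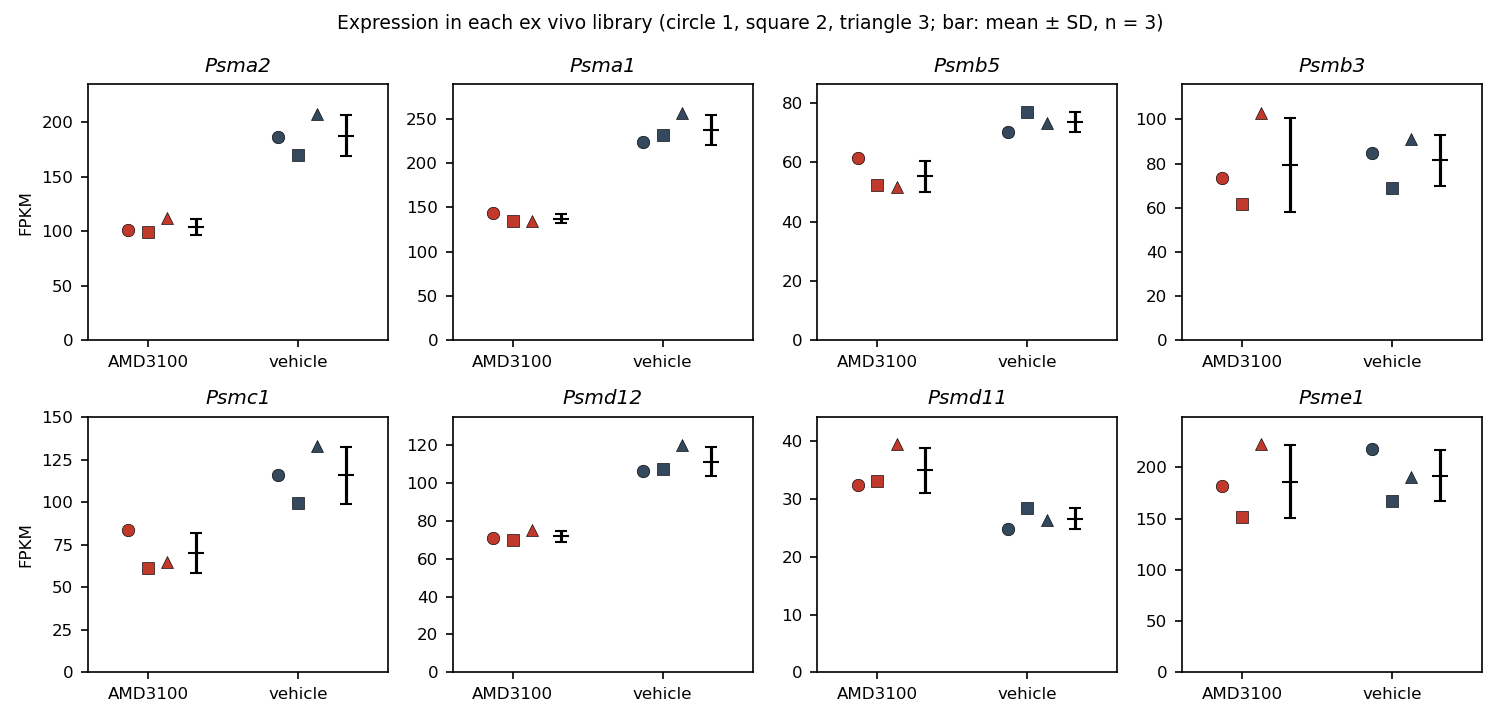
FPKM of 8 members in each ex vivo sample, AMD3100 left and vehicle right, with circles, squares and triangles for samples 1, 2 and 3 and bars for mean ± SD (n = 3). Psma2, Psma1, Psmb5, Psmc1 and Psmd12 are lower in every AMD3100 sample, Psmd11 is higher in every one, and the groups of Psmb3 and Psme1 overlap.

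The activators, which bind the core in place of the 19S particle, showed no call and a median change of -0.04. Psme1 and Psme2 form PA28 alpha-beta, an interferon-inducible cap. Psme1 had 182, 152 and 223 FPKM with AMD3100, against 218, 167 and 191 FPKM with vehicle, a difference of -0.06 (adjusted p = 0.732). Psme2 had 15.3, 14.5 and 12.6 FPKM with AMD3100, against 21.6, 14.7 and 20.8 FPKM with vehicle, a difference of -0.39 (adjusted p = 0.109). Psme3, the nuclear PA28 gamma, had 145, 151 and 165 FPKM with AMD3100, against 117, 132 and 161 FPKM with vehicle. Psme3 was higher in each of the 3 pairs, but its groups overlapped and the difference of 0.18 was not called (adjusted p = 0.163). Psme4, or PA200, had 23.6, 26.1 and 30.2 FPKM with AMD3100, against 25, 26.1 and 30.3 FPKM with vehicle, with a 95% interval of the paired log2 change of -0.20 to 0.15.

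Of the 3 base assembly chaperones with Psmd symbols, Psmd9 fell by 0.47 (adjusted p = 0.0427), while Psmd10 at -0.47 (adjusted p = 0.0765) and Psmd5 at -0.21 (adjusted p = 0.0862) were not called. Psmc3ip, which is no subunit, had 18.9, 26.8 and 24.9 FPKM with AMD3100, against 30.3, 30.6 and 31.4 FPKM with vehicle. It was lower in every AMD3100 sample but not called, at -0.38 (adjusted p = 0.0669). Without Psma8, Psma3 and Psmc3ip, a choice made after seeing the data, 23 of 37 members were called lower and the median change was -0.37. None of the genes left out was called, so leaving them out could only raise the share of members called.

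Genes that act with the proteasome outside the symbol rule had list medians from -0.17 to 0.17. For the counts in these lists, the paired fit called 9.92% of all genes lower and 9.96% higher. Of 7 assembly factors tested, 2 were called lower and none higher, with a median of -0.05. Psmg3, a chaperone of alpha ring assembly, had 30.8, 28.6 and 33.9 FPKM with AMD3100, against 45.8, 50.0 and 53.3 FPKM with vehicle, and fell by 0.66 (adjusted p = 0.0197). Pomp, which matures the beta ring, fell by 0.46 (adjusted p = 0.0240), and Psmg1 at -0.29 was not called (adjusted p = 0.0571). Of 9 proteasome-associated proteins, 2 were called lower and none higher, with a median of -0.15. These were Shfm1, a small lid subunit, which fell by 0.64 (adjusted p = 0.0198), and the deubiquitinase Uchl5, which fell by 0.37 (adjusted p = 0.0299). The ubiquitin receptor Adrm1 differed by 0.39 in the upward direction without a call (adjusted p = 0.0516).

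Among 8 tested genes of proteasome transcriptional control none was called, and their median was 0.12. Nfe2l1, the factor that drives subunit transcription when proteasomes are inhibited, had 34.5, 30.7 and 51.1 FPKM with AMD3100, against 24.1, 25.4 and 22.7 FPKM with vehicle. Every AMD3100 value was above every vehicle value, yet the difference of 0.63 missed the threshold (adjusted p = 0.0637). Nfya at 0.24 (adjusted p = 0.0709) and Ngly1, the glycanase that processes the Nfe2l1 protein, at 0.31 (adjusted p = 0.0809) were also not called. Of 5 genes for ubiquitin and its activating enzymes, 1 was called lower: Ubb, a polyubiquitin gene, had 244, 207 and 233 FPKM with AMD3100, against 326, 314 and 357 FPKM with vehicle. Its change was -0.54 (adjusted p = 0.0199). Of 10 ubiquitin shuttles and Vcp cofactors, 1 was called lower, Rad23b at -0.27 (adjusted p = 0.0415), and their median was -0.03. That count is near the share of all genes called lower (9.92%). Of the 3 immunoproteasome subunits Psmb10 fell by 0.40 (adjusted p = 0.0369), and Psmb8 at -0.17 and Psmb9 at -0.15 were not called.

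Other large complexes shared the direction, in a fit that called 9.92% of all genes lower and 9.96% higher. The COP9 signalosome, which resembles the lid in subunit makeup and removes Nedd8 from cullins, had 5 of 9 genes called lower, none higher and a median of -0.30. Cops4 fell by 0.61, Cops3 fell by 0.60 and Cops5, its catalytic subunit, fell by 0.50. The CCT chaperonin, a ring that folds actin and tubulin, had 5 of 8 genes called lower, none higher and a median of -0.42, with Cct3 at -0.59, Cct8 at -0.47 and Cct6a at -0.47. The shift was therefore not shown to be particular to the proteasome.

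Transcript length moved with the change ex vivo. The longest annotated transcripts of the members had a median of 1900 bases, against 3336 bases for the 10079 tested genes with a known length. Over those genes the Spearman correlation of log2 change and length was 0.321, a description in which all genes share the same 6 libraries. The 2592 genes with lengths between the quartiles of the members (1363 and 2710 bases) had a median change of -0.11. After a loess fit on length was taken from each pair, the median change was -0.23 for core and -0.27 for regulatory members. In that fit 5 core and 10 regulatory members were called lower (6.45% of all genes called lower) and Psmd11 was still called higher (6.44% called higher). Psma2 was at -0.81 (adjusted p = 0.0182) and Psma1 at -0.61 (adjusted p = 0.0271) after the correction, and 5 of 6 ATPases were called lower. No beta ring gene was called after it, with Psmb5 at -0.21 (adjusted p = 0.198), Psmb6 at -0.15 and Psmb7 at -0.25. The size of the correction depended on the longest annotated transcript, 2911 bases for Psma2, 1201 for Psma1, 2849 for Psmb7 and 899 for Psmb5. Which transcripts the cells held is not known, so differences between single genes after the correction may reflect this choice.

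**Figure D3:**
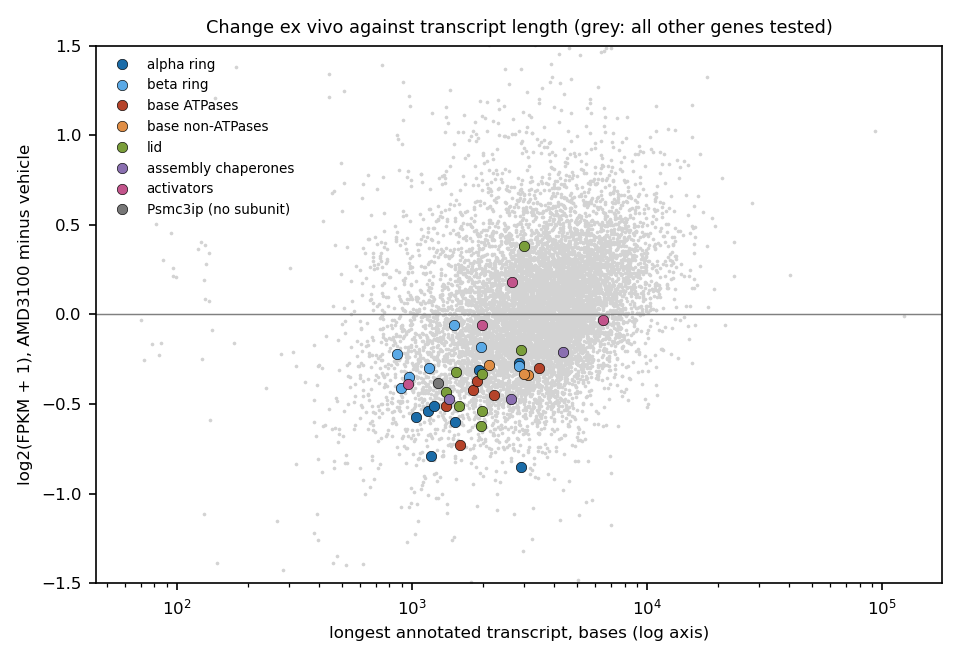
Change ex vivo in log2(FPKM + 1), AMD3100 minus vehicle, against the length of the longest annotated transcript in bases on a log axis, for members in colour and all other tested genes in grey; changes beyond 1.5 in either direction are not drawn. The members lie at shorter lengths than the bulk of genes and mostly below 0, with Psmd11 and Psme3 above it.

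Cell markers and RNA features ex vivo were as follows. The 13 T lineage markers summed to 3185 to 3595 FPKM with AMD3100, against 3641 to 3995 FPKM with vehicle, so they too were lower in every AMD3100 sample. Erythroid, dendritic, B cell and neutrophil markers summed to at most 3.52 FPKM in AMD3100 samples and 12.3 FPKM in vehicle samples. The 8 macrophage markers summed to 6.52, 7.91 and 17.7 FPKM in AMD3100 samples 1, 2 and 3, against 4.01, 6.68 and 11.7 FPKM in vehicle samples 1, 2 and 3. They were higher with AMD3100 in all 3 pairs, the groups overlapped, and at least 4 of the 8 were at 0 in every sample. The 5 NK markers summed to 1523 to 3647 FPKM with AMD3100, against 1283 to 2897 FPKM with vehicle, and the 5 endothelium markers to 44.4 to 59.9 FPKM, against 45.4 to 58.4 FPKM. In each sample only 2 or 3 of the NK markers and 2 of the endothelium markers reached 1 FPKM. These sums do not show which cells held the RNA. The 7 stroma markers, which OP9 cells could bring, summed to 168, 199 and 21.4 FPKM in AMD3100 samples 1, 2 and 3, against 152, 184 and 10.9 FPKM in vehicle samples 1, 2 and 3, so they differed by number more than by treatment. Malat1, a long RNA kept in the nucleus, had 527, 580 and 920 FPKM with AMD3100, against 178, 214 and 334 FPKM with vehicle, a rise of 1.48 (adjusted p = 0.0138). The part of the T lineage and macrophage markers, of the length trend and of Malat1 in the lower proteasome values was not tested. In bulk RNA, fewer cells of a type and less RNA per cell cannot be told apart.

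In the primary tumours Cxcr4 itself had 23.2, 78.9 and 21.9 FPKM in Cxcr4-KO tumours 5, 7 and 8, against 241, 155 and 206 FPKM in Cxcr4+/+ tumours 1, 2 and 4. The knockout tumours were lower without overlap but not at 0. Without shared replicate numbers there were no pairs, and 4 of 10741 genes were called in all, without Cxcr4 among them (adjusted p = 0.986).

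No proteasome gene was called between the genotypes. Of the 40 members none was called lower (0.0186% of all genes called lower) and none higher (0.0186% called higher), and 1 passed an unadjusted p under 0.05 (4.28% of all genes). The change was below 0 for 32 of 40 members (52.3% of all genes), with a median of -0.33 for core and -0.33 for regulatory members, against -0.03 for all genes. Leaving out 1 tumour at a time moved the core median between -0.52 and -0.18 and the regulatory median between -0.50 and -0.19. The median standard error of a member was 0.348 here and 0.108 ex vivo without pairs, so a shift of the size seen ex vivo was within the error of single genes. In 4 members, Psma6, Psma8, Psmb2 and Psmc4, every Cxcr4-KO value lay below every Cxcr4+/+ value (5.20% of all genes), and none stood apart upward (4.01%).

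Psma6 had 106, 118 and 91.3 FPKM in Cxcr4-KO tumours, against 176, 158 and 167 FPKM in Cxcr4+/+ tumours. Its difference of -0.67 had an unadjusted p of 0.031 and an adjusted p of 0.986 (limma). Psma5 had 12.6, 11.8 and 9.58 FPKM in Cxcr4-KO tumours, against 10.0, 30.1 and 28.6 FPKM in Cxcr4+/+ tumours, a difference of -0.82. Here Cxcr4+/+ tumour 1 lay among the Cxcr4-KO values. Psmd1 had 67.9, 42.0 and 35.6 FPKM in Cxcr4-KO tumours, against 48.2, 81.9 and 108 FPKM in Cxcr4+/+ tumours, a difference of -0.68 with overlap. Psma8 was close to the minimum, with 0, 1.07 and 0 FPKM in Cxcr4-KO tumours, against 2.99, 1.19 and 1.09 FPKM in Cxcr4+/+ tumours.

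Psmb5 had 31.6, 32.3 and 15 FPKM in Cxcr4-KO tumours, against 18.3, 37.8 and 34.6 FPKM in Cxcr4+/+ tumours. Psmb6 had 80.4, 40.1 and 35 FPKM in Cxcr4-KO tumours, against 47.8, 65.5 and 78.6 FPKM in Cxcr4+/+ tumours. Psmb7 had 88.2, 60.1 and 71.9 FPKM in Cxcr4-KO tumours, against 50.7, 101 and 147 FPKM in Cxcr4+/+ tumours. In all 3 protease subunits the groups overlapped, and Cxcr4+/+ tumour 1 was the lowest of its genotype. The 95% interval of the difference ran from -1.21 to 0.80 for Psmb5, from -1.28 to 0.54 for Psmb6 and from -1.31 to 0.66 for Psmb7.

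In the 19S particle, Psmc4 had 65.6, 74.2 and 76.9 FPKM in Cxcr4-KO tumours, against 95.9, 86.4 and 114 FPKM in Cxcr4+/+ tumours, a difference of -0.44 without overlap and without a call. The 6 ATPases lay between -0.60 and -0.22, the base subunits Psmd1, Psmd2 and Psmd4 between -0.68 and -0.47, and 7 of 8 lid genes below 0. Psmd14 had 59.0, 58.0 and 60.5 FPKM in Cxcr4-KO tumours, against 58.4, 76.7 and 92.5 FPKM in Cxcr4+/+ tumours, a difference of -0.33. Psmd11, the member that rose ex vivo, had 50.1, 35.3 and 36.9 FPKM in Cxcr4-KO tumours, against 32.1, 42.2 and 38.9 FPKM in Cxcr4+/+ tumours, a difference of 0.10 with a 95% interval of -0.55 to 0.75.

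The activators spread widely. Psme3 had 338, 140 and 169 FPKM in Cxcr4-KO tumours, against 85.9, 155 and 369 FPKM in Cxcr4+/+ tumours. Psme2 had 16.8, 28.6 and 3.97 FPKM in Cxcr4-KO tumours, against 10.1, 13.1 and 8.64 FPKM in Cxcr4+/+ tumours. Psme1 at 0.04 and Psme4 at -0.38 also overlapped between genotypes. The largest difference upward was that of Psma3, at 0.67 with overlap. Psma3 was listed low here too, with 4.95, 6.70 and 2.18 FPKM in Cxcr4-KO tumours, against 2.70, 2.23 and 1.99 FPKM in Cxcr4+/+ tumours. Psme2 at 0.27, Psmd9 at 0.26 and Psmb3 at 0.26 followed. Psmc3ip ranged from 6.66 to 44.4 FPKM in Cxcr4-KO tumours, against 8.82 to 25.4 FPKM in Cxcr4+/+ tumours.

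**Figure D4:**
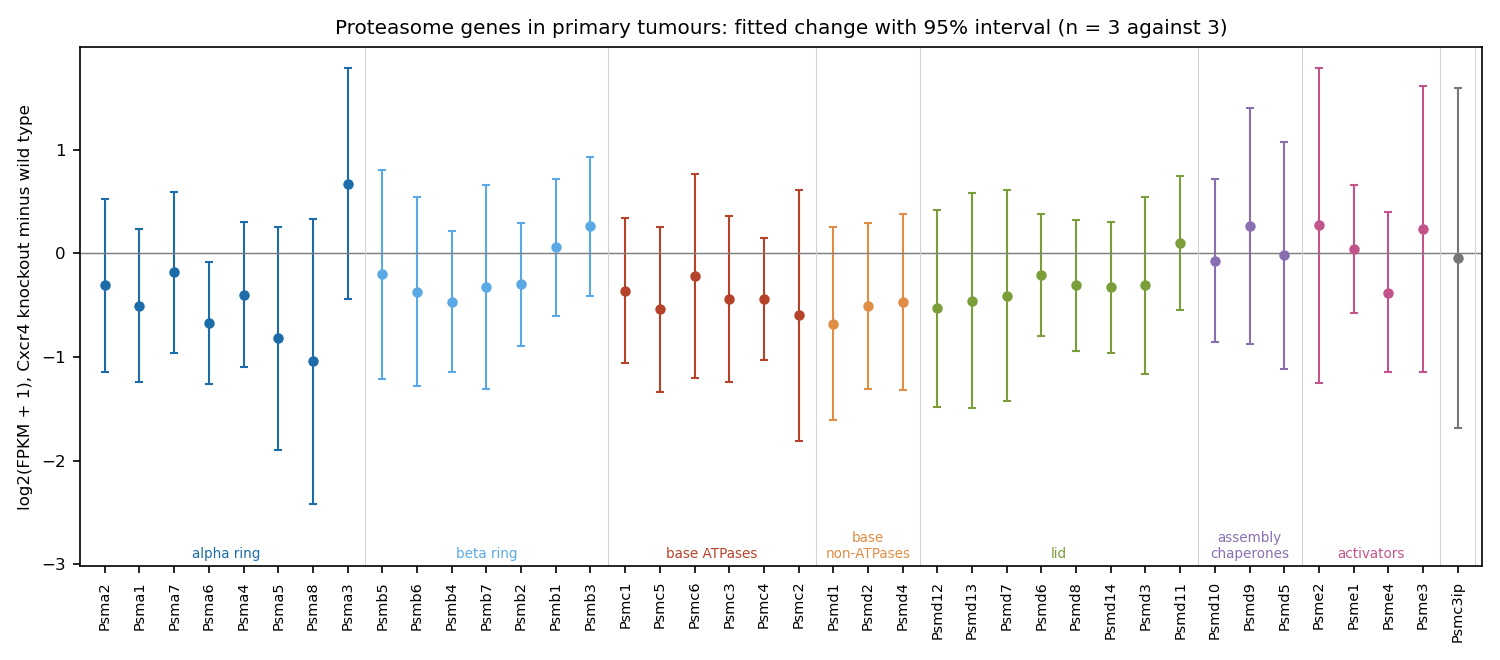
Fitted difference of each of the 40 members in primary tumours in log2(FPKM + 1), Cxcr4 knockout minus wild type, with its 95% interval from limma (n = 3 against 3); colours mark subcomplexes. The points lie mostly below 0, and the interval of Psma6 is the one that does not reach 0.

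No gene of the other proteasome lists was called in the tumours. The medians were -0.72 for assembly factors, with Psmg1 at -1.24 and Psmg2 at -0.79, then -0.15 for associated proteins, with Adrm1 at -1.54, and 0.18 for transcriptional control. The immunoproteasome genes lay at 0.48 for Psmb10, 0.20 for Psmb8 and 0.18 for Psmb9. Ubiquitin genes had a median of 0.12, shuttles -0.05, COP9 genes -0.48 and CCT genes -0.25. The smallest adjusted p in any of these lists was 0.986.

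Tumours of one genotype differed among themselves. The median of the members relative to the Cxcr4+/+ mean was -0.07, -0.38 and -0.49 in Cxcr4-KO tumours 5, 7 and 8, against -0.37, 0.06 and 0.31 in Cxcr4+/+ tumours 1, 2 and 4. By this measure Cxcr4+/+ tumour 1 was as low as Cxcr4-KO tumour 7. As a share of the summed FPKM of a tumour, the members took 0.552%, 0.567% and 0.643% in Cxcr4-KO tumours, against 0.716%, 0.897% and 0.746% in Cxcr4+/+ tumours, and by that measure every Cxcr4-KO tumour lay below every Cxcr4+/+ tumour. Haemoglobin made up 20.4%, 2.76% and 6.55% of all FPKM in Cxcr4-KO tumours, against 1.29%, 5.47% and 23.0% in Cxcr4+/+ tumours. Within each genotype the tumour with the highest haemoglobin share had the highest member median. For the members' share of the summed FPKM this did not hold: Cxcr4-KO tumour 5 had the lowest share of its genotype, and Cxcr4+/+ tumour 4 lay below Cxcr4+/+ tumour 2. T lineage markers summed to 1961, 4067 and 3285 FPKM in Cxcr4-KO tumours, against 5785, 1506 and 1616 FPKM in Cxcr4+/+ tumours, and all 13 were above 1 FPKM in each. Neutrophil markers summed to 66.8 to 318 FPKM in Cxcr4-KO tumours, against 5.56 to 3106 FPKM in Cxcr4+/+ tumours. B cell markers summed to 41.8, 49.3 and 56.3 FPKM in Cxcr4-KO tumours, against 37.1, 28.1 and 12.5 FPKM in Cxcr4+/+ tumours. Dendritic markers summed to 6.36, 8.72 and 12.4 FPKM in Cxcr4-KO tumours, against 4.08, 6.22 and 3.28 FPKM in Cxcr4+/+ tumours. Both sums were higher in every Cxcr4-KO tumour, but they rest on few genes. Only 1 or 2 of the 4 dendritic markers reached 1 FPKM in Cxcr4-KO tumours, and 1 in Cxcr4+/+ tumours. Of the 6 B cell markers, 3 to 5 reached it in Cxcr4-KO tumours and 2 to 5 in Cxcr4+/+ tumours. Macrophage markers summed to 34.7 to 111 FPKM in Cxcr4-KO tumours, against 14.1 to 81.4 FPKM in Cxcr4+/+ tumours. NK markers (658 to 2046 FPKM in Cxcr4-KO tumours, against 495 to 1907 FPKM in Cxcr4+/+ tumours), endothelium and stroma markers also overlapped. The marker sums do not show which cells held the RNA. The part of other cells in the proteasome values was not tested.

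**Figure D5:**
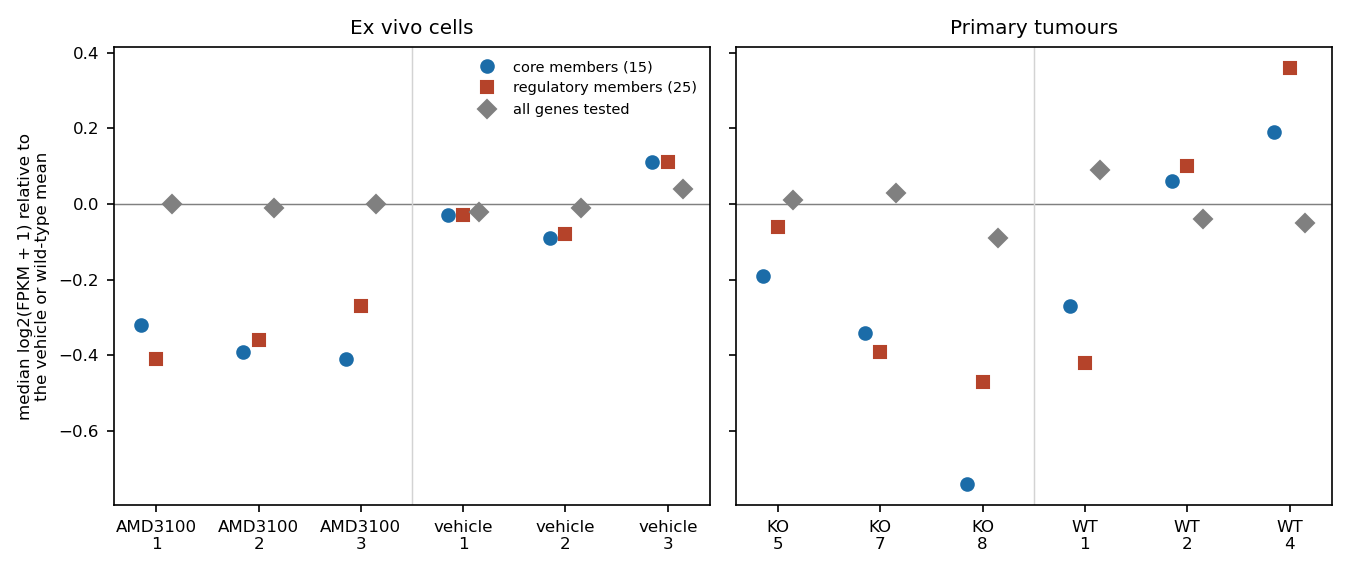
Median log2(FPKM + 1) of the 15 core members, the 25 regulatory members and all tested genes in each sample, relative to the vehicle mean (left panel) or the wild-type mean (right panel). Ex vivo the member medians of the 3 AMD3100 samples lie between -0.41 and -0.27 and those of the vehicle samples between -0.09 and 0.11, while the knockout and wild-type tumours overlap.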

How the data were processed

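RNA from 12 samples was measured by poly-A RNA sequencing (strand-specific dUTP libraries, per the labels' protocols). The authors deposited FPKM values in 2 tables of 6 samples. CASAVA, TopHat and mm9 are named per the submitters' processing notes. The program and annotation that gave FPKM, and any use of strand, were not given in the sources used here. Columns were assigned through the sample names in the table headers. Rows with a table mean of at least 1 FPKM (10245 ex vivo, 10741 in tumours) were fitted on log2(FPKM + 1), which understates changes of low genes, with limma 3.58.1 in R 4.3.3 (eBayes with a trend, two-sided, Benjamini-Hochberg adjustment over all rows tested, call at 0.05). The code was tested on simulated data.

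Same-numbered ex vivo samples had correlations of deviations of 0.467, 0.579 and 0.619, against -0.473 to 0.0455 for other numbers. Deviations from a group mean cancel within the group, so high values for same numbers push those for other numbers down. The contrast between them is therefore no independent evidence of pairing. Because of the shared numbers and the first 3 values, the samples were also fitted with the replicate number as a block. What the number marks is not in the labels. Lengths were the longest GENCODE vM21 transcripts, matched for 98.4% of rows ex vivo. An exact test of 3 against 3 samples cannot go below 0.1, so none was run. Members and gene lists were chosen with earlier results of these data known. Named with all values were the protease, base scaffold and receptor subunits, Psmc4, Psmd14, Psmd11, the activators, and members with the largest changes or smallest p. Alternatives were other pseudocounts, minimums, scalings and variance models, and leaving out samples.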

Additional observations from a re-analysis of the deposited data

How the results depend on the processing

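With the replicate block, 2036 genes were called ex vivo against 13 without it, and 9 core and 14 regulatory members were called lower and 1 regulatory member higher, against 0 without it. With block and length correction there were 1299 genes, 5 core and 10 regulatory members lower, 1 higher, and medians of -0.23 and -0.27. Alternatives to the blocked fit were chosen after seeing the data: median-of-ratios scaling gave 2033 genes, 8 core and 14 regulatory lower and 1 higher, TMM 1956, 8 and 13, quantile normalisation 1914, 6 and 9, a mean of at least 5 FPKM 2108, 9 and 15 with 1 higher, pseudocount 0.1 2040, 9 and 14 with 1 higher, no trend 1089, 5 and 7, and leaving out Psma8, Psma3 and Psmc3ip 9 and 14 with 1 higher. Psmd11 was thus not called under TMM, quantile normalisation or no trend. Without the block, a mean of at least 5 FPKM gave 188 genes with 2 core and 2 regulatory members lower, pseudocounts 0.1 and 0.5, median-of-ratios and TMM each called 1 core member lower, and the genes called were 8 with no filter, 3 with quantile normalisation and 1 with no trend. With the block, leaving out 1 pair gave 4 to 559 genes, 0 to 5 core and 0 to 7 regulatory members lower. Without it, leaving out 1 sample gave 3 to 5 genes and no member called. Both together gave medians of -0.49 to -0.32 for core and -0.41 to -0.31 for regulatory members. In the tumours no filter gave 0 genes and leaving out 1 sample 0 to 2, with no member called. No paired fit was possible there because the genotypes share no numbers. Why these counts moved was not tested, apart from the fewer samples or genes.

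Direction turned in genes that were not called. Ex vivo, Psma8 was at 0.05 with pseudocount 0.1 (with and without the block), Psmb3 at 0.00 and Psme1 at 0.08 with quantile normalisation (with and without the block), and Psmb3 at 0.08 and Psme1 at 0.04 with block and length correction. Leaving out 1 sample or pair gave -0.12 to 0.05 for Psme4, -0.27 to 0.10 for Psmb3, -0.20 to 0.08 for Psme1 and -1.78 to 0.91 for Psma8, and with the block, leaving out 1 pair, -0.18 to 0.01 for Psmb3 and -0.20 to 0.04 for Psme1. In the tumours it gave -0.10 to 0.24 for Psmb1, -0.77 to 0.51 for Psmc3ip, -0.05 to 0.19 for Psmd11, -0.26 to 0.79 for Psme3, -0.45 to 0.24 for Psmd5, -0.28 to 1.00 for Psme2, -0.52 to 0.14 for Psmb5, -0.05 to 0.71 for Psmd9, -0.04 to 0.18 for Psme1, -0.74 to 0.02 for Psmb7, -0.59 to 0.08 for Psmc6 and -0.24 to 0.20 for Psmd10. The other members kept their direction under every setting run.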

Other observations

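Psma8 was not alone in its pattern. Ex vivo, 40 rows had at least 5 FPKM in all samples numbered 1 and 2 and under 0.5 FPKM in both samples numbered 3, and 11 rows had the reverse. Among the 11, Fcer1g had 0, 0 and 119 FPKM in AMD3100 samples 1, 2 and 3, against 0, 0.338 and 47.0 FPKM in vehicle samples. Oprk1 had 0.205, 0.224 and 13.5 FPKM with AMD3100, against 0.280, 0.240 and 17.1 FPKM with vehicle, and Wnt6 had 0.0703, 0 and 21.4 FPKM with AMD3100, against 0, 0 and 16.6 FPKM with vehicle. No row was missing from the samples numbered 1 alone, 5 rows were found in them alone, and for number 2 there were 3 missing and 6 found. These genes were picked after their values were seen.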
